A study of Homo sapiens with 4 samples.

Results

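The serpins were taken here as every gene whose symbol in the deposited tables begins with SERPIN. The rule gave 34 genes with 67 transcript models, of 42067 genes and 58146 models in all, and for each gene the model with the most reads over the 4 libraries was used. The cells were Huh7, an established line from a human hepatocellular carcinoma, so all values are from 1 cell line. In the H2O2 group the cells were kept for 4 days in 300 µM hydrogen peroxide, and in the mock group for 4 days without it, both in DMEM with fetal bovine serum and with fresh medium each day. Each group had 2 libraries, whose titles carry the letter H or Q, and no source used here explains these letters. The labels do not say whether the 2 libraries of a group came from separate cultures, so the p-values measure only the spread between these libraries, which may be technical. In RNA from whole cultures, fewer cells of a type and less RNA per cell cannot be told apart.

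Serpins are proteins that present a mobile loop as bait to a protease. When the protease cuts the loop, an inhibitory serpin changes shape and traps the enzyme in a covalent complex, and both are then cleared or degraded. Hepatocytes secrete most of the serpins of blood plasma, which act on clotting, clot breakdown, complement and inflammatory proteases. Some members do not inhibit proteases and instead carry hormones or assist protein folding, and the clade B serpins act mostly inside cells.

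Promoter sequences are shown for the 3 serpin genes of chromosome 18 that were tested, SERPINB7, SERPINB8 and SERPINB13, since SERPINB7 and SERPINB8 are 2 of the serpins whose level differed between the letters. The RefSeq table of build GRCh38.p14 gave windows from 250 bases before to 50 bases after a transcription start for 27 of the 34 genes. The letters TGACTCA, the core bound by AP-1 (a pair of leucine zipper factors active in epithelia and under stress), were searched on both strands (TGAGTCA on the other). They were in the windows of 3 of 27 serpin genes (11.1%), which were these 3 genes, and of 0 of 8 plasma serpin genes with an entry. By comparison, 1651 of 27305 genes with an entry held them (6.05%), and 1738 of 35116 windows did (4.95%). SERPINB13 was not among the serpins called between libraries H and Q, with an adjusted p of 0.715 for the letter in edgeR. Of the other serpins that differed between libraries H and Q, SERPINE2 had no match in its windows, and SERPINC1, SERPINF1 and SERPINF2 had no entry. A link of the motif to the difference between libraries H and Q was not tested. The motif was chosen after several had been searched in these windows, and a match is a description of the letters and not of a site in use. The windows that hold it are printed 5′ to 3′ on the strand of the gene, with TGACTCA or TGAGTCA in capitals and positions counted from the start. SERPINB7 has 2 such windows, with the match at −39 (chr18:63775168-63775467, plus strand) and at −45 (chr18:63777531-63777830, plus strand). Another SERPINB7 window (chr18:63752807-63753106, plus strand) held no match. The match was at −28 in SERPINB8 (chr18:63969831-63970130, plus strand) and at −87 in SERPINB13 (chr18:63587093-63587392, plus strand).
SERPINB7, first window: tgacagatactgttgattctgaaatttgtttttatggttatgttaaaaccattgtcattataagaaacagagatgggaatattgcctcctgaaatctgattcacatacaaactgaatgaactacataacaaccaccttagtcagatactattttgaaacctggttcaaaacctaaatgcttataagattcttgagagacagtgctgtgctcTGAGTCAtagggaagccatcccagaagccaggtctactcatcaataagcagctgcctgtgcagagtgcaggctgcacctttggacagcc
SERPINB7, second window: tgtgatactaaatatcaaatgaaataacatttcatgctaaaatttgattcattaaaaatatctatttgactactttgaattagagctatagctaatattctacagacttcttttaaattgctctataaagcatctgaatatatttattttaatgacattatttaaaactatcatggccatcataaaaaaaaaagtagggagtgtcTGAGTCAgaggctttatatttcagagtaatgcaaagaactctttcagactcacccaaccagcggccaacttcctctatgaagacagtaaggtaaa
SERPINB8: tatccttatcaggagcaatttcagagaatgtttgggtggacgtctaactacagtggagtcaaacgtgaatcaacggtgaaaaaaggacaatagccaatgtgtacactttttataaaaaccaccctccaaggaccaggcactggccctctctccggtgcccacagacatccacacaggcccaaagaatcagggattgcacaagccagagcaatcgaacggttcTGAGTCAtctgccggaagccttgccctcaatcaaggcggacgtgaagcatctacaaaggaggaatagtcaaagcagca
SERPINB13: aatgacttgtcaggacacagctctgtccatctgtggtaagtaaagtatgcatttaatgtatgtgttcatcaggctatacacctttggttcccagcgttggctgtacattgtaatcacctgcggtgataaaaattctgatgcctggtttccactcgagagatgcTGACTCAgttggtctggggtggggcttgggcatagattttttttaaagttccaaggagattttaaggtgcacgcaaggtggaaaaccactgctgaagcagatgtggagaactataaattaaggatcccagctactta

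With 1 model per gene, the libraries held 103851326 to 113082498 counted reads, and 27263 genes with a mean of at least 10 reads entered the test. Levels are given as CPM, the reads of a gene relative to all counted reads after TMM scaling of the libraries, and fold changes as log2 of H2O2 over mock. Of the hepatocyte genes, ALB, serum albumin, was at 9130 and 5193 CPM in H2O2 H and Q, against 5981 and 2561 CPM in mock H and Q. Not all were that high, and TTR, transthyretin, was at 14.8 and 20.5 CPM in H2O2 H and Q, against 17.7 and 25.9 CPM in mock H and Q. Of markers of other cells, CDH5 of endothelium had 2 and 4 reads in H2O2 H and Q, against 5 and 13 in mock H and Q. PTPRC of leukocytes had 8 and 21 reads in H2O2 H and Q, against 5 and 33 in mock H and Q. Both CDH5 and PTPRC were close to 0 beside ALB. Summed over 11 fibroblast and stellate cell markers, the level was 67.4 and 53.9 CPM in H2O2 H and Q, against 47.5 and 49.1 CPM in mock H and Q. Of the 11, 3 had a higher and 8 a lower fitted level in H2O2, and without PDGFRA, a growth factor receptor, the other 10 summed to 24.5 and 25.3 CPM in H2O2 H and Q, against 27.6 and 31.2 CPM in mock H and Q. Over 10 endothelial markers it was 3.70 and 3.82 CPM in H2O2 H and Q, against 3.17 and 5.27 CPM in mock H and Q. Over 11 blood cell markers it was 685.5 and 647 CPM in H2O2 H and Q, against 486 and 493 CPM in mock H and Q, mostly from LYZ, lysozyme. Of the 8 blood cell markers tested, 3 had a higher and 5 a lower fitted level in H2O2. Without LYZ the other 10 summed to 89.2 and 109 CPM in H2O2 H and Q, against 67.4 and 101 CPM in mock H and Q. No marker was at 0 reads in all libraries. The mock libraries lay apart from each other, mock Q in secreted proteins and mock H in hypoxia genes. Over 23 secreted hepatocyte proteins other than serpins, the median level relative to the mean of the 4 libraries was 0.74 and 0.01 in H2O2 H and Q, against 0.32 and −1.15 in mock H and Q (log2). For 14 hypoxia genes it was 0.04 and −0.16 in H2O2 H and Q, against 1.03 and −0.72 in mock H and Q. Their part in the serpin values was not tested.

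Of the 34 serpin genes, 25 passed the filter on low counts. Of these, 16 had a higher and 9 a lower fitted level in H2O2, and the median log2 fold change was 0.35, beside −0.03 over all genes tested. SERPINB7, SERPINA11, SERPINA12, SERPINB13 and SERPINE3 averaged under 2 CPM. Without them 11 had a higher and 9 a lower fitted level, and the median was 0.22. The median of the 25 was 0.10 to 0.68 with 1 library left out. In edgeR's quasi-likelihood test 0 serpins had an adjusted p under 0.05, as did 0 of the 27263 genes (0.00%), and the lowest adjusted p of a serpin was 0.717. DESeq2 called 141 genes (0.517%) and 0 serpins. At an unadjusted p under 0.05, both edgeR and DESeq2 had 2 serpins, SERPINA4 among them, both higher in H2O2. In edgeR 6.86% of all genes passed that threshold, 3.16% as higher and 3.70% as lower. For 5 of the 25 serpins both H2O2 libraries lay above both mock libraries (18.2% of all genes), and for 0 both lay below (21.4% of all genes). Among the 5 was SERPINA12, which had 15 reads in both H2O2 Q and mock Q, at 0.1255 and 0.1239 CPM.

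**Figure D1:**
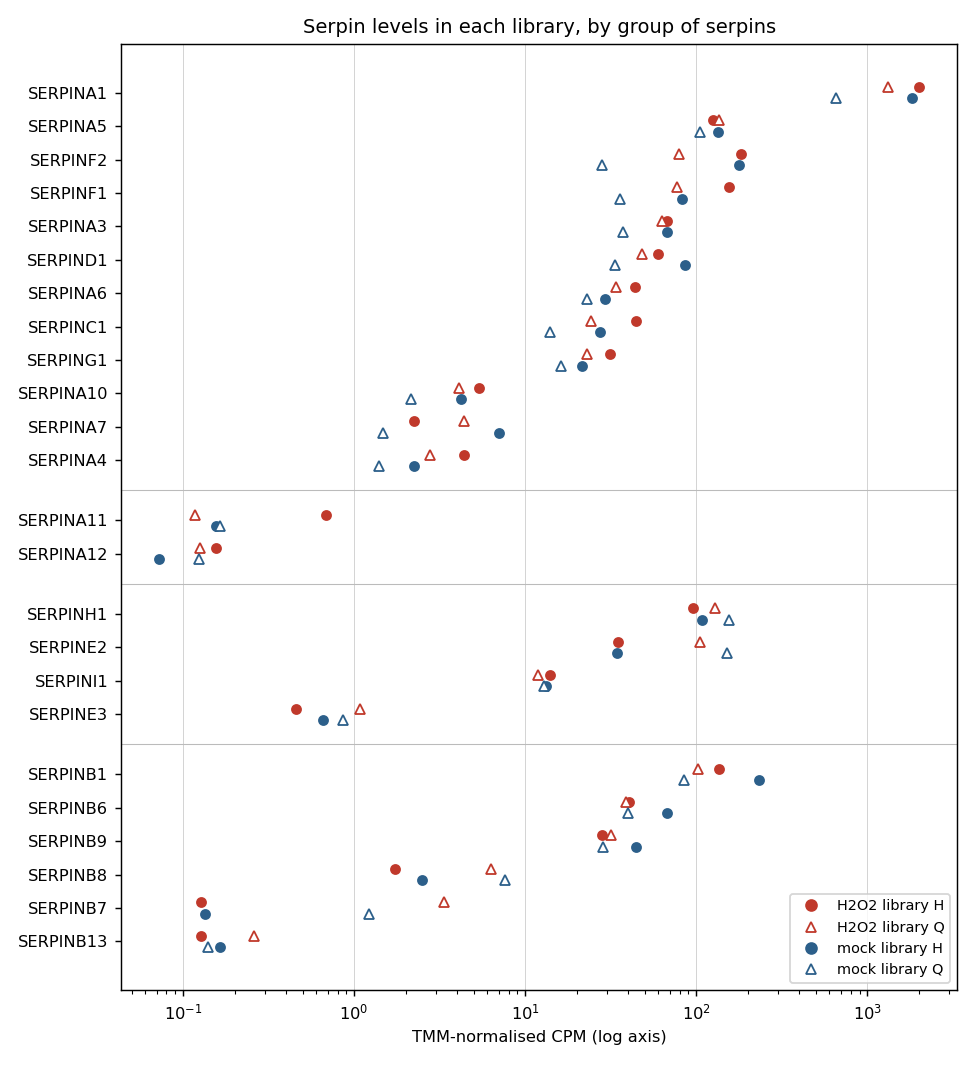
TMM-normalised CPM of serpins that passed the filter (log axis), by group of serpins, with H2O2 in red and mock in blue, circles for library H and triangles for library Q. SERPINA1 lies between 656 and 2015 CPM, above all other serpins, and for every plasma serpin the lowest point is mock Q.

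The most abundant serpin was SERPINA1, alpha-1-antitrypsin, the main plasma inhibitor of neutrophil elastase. It was at 2015 and 1323 CPM in H2O2 H and Q, against 1812 and 656 CPM in mock H and Q. The groups overlapped, with mock Q far below the other 3 libraries. The mean was 1669 ± 489 CPM in H2O2 and 1234 ± 817 CPM in mock (SD, n = 2 each). The log2 fold change was 0.44 ± 0.54 (SE), with an adjusted p of 0.847 in edgeR. Without mock Q it was −0.12, and without mock H it was 1.35. Within letter H the H2O2 library was 1.11 times the mock library, and within letter Q it was 2.02 times (CPM + 0.1 in both terms here and in all ratios within a letter).

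Levels of different serpins were compared as CPM per kilobase of transcript. SERPINA1 averaged 894.8 CPM per kilobase over the 4 libraries, and the next 7 were SERPINF1 at 56.4, SERPINA5 at 53.5, SERPINH1 at 53.1, SERPINB1 at 53.1, SERPINF2 at 51.4, SERPINE2 at 37.0 and SERPINA3 at 36.9. After SERPINA1, neighbours in this order lay within the spread of their libraries. The order was not the same in the deposited FPKM, a level scaled by length and library size. There SERPINB1 was at 760 and 628 in H2O2 H and Q, against 1265 and 519 in mock H and Q. SERPINF1 was at 955 and 539 in H2O2 H and Q, against 504 and 242 in mock H and Q. SERPINA1 made up 70.0% and 64.8% of the summed serpin level per kilobase in H2O2 H and Q, against 67.9% and 52.9% in mock H and Q. In the deposited FPKM, SERPINA1 was at 6483 and 4792 in H2O2 H and Q, against 5983 and 2344 in mock H and Q. Its lead over SERPINF1 was smaller there, so these shares hold only for the transcript lengths used here. All 34 serpins took 0.282% and 0.240% of counted reads in H2O2 H and Q, against 0.277% and 0.162% in mock H and Q. The share was lowest in mock Q and nearly the same in both H libraries.

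Of the 12 plasma serpins of the liver, SERPINA1 among them, 10 had a higher and 2 a lower fitted level in H2O2, and the median log2 fold change was 0.48. In 8 of the 12 the H2O2 library was higher within both letters (32.5% of all genes), and in 0 it was lower within both (34.3% of all genes). In 4 of the 12 the letters went opposite ways, beside 9057 of the 27263 genes tested. The median log2 ratio of the 12 plasma serpins was 0.25 in the H libraries and 0.85 in the Q libraries, beside −0.01 in each over all genes. Without mock Q, 6 of the 12 were higher and the median was 0.07, whereas without mock H 12 of 12 were higher and the median was 1.16. Among the 23 other secreted hepatocyte proteins, 18 had a higher fitted level in H2O2 and the median was 0.59.

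For SERPINA4, SERPINA6 and SERPING1 the ratio of H2O2 to mock was nearly the same in both letters. SERPINA4, kallistatin, an inhibitor of tissue kallikrein, was at 4.38 and 2.78 CPM in H2O2 H and Q, against 2.25 and 1.40 CPM in mock H and Q. The groups did not overlap, and H2O2 was 1.91 times mock within each letter. Its log2 fold change was 0.97 ± 0.38 (SE), with a p of 0.0497 and an adjusted p of 0.717 in edgeR. SERPINA6, the corticosteroid-binding globulin of plasma, was at 43.8 and 33.9 CPM in H2O2 H and Q, against 29.2 and 22.8 CPM in mock H and Q. Again the groups did not overlap, and H2O2 was 1.5 and 1.48 times mock within H and Q. The log2 fold change of SERPINA6 was 0.58 ± 0.24 (SE), with an adjusted p of 0.718 in edgeR. SERPING1, the C1 inhibitor, which controls the first complement proteases and plasma kallikrein, was at 31.1 and 23.1 CPM in H2O2 H and Q, against 21.4 and 16.1 CPM in mock H and Q. Its groups did not overlap, and H2O2 was 1.45 and 1.43 times mock within H and Q. The log2 fold change was 0.53 ± 0.26 (SE), with an adjusted p of 0.720 in edgeR.

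SERPINC1 and SERPINF1 had overlapping groups but were higher in H2O2 within both letters. SERPINC1, antithrombin, the heparin-activated inhibitor of thrombin and factor Xa, was at 44.2 and 24.3 CPM in H2O2 H and Q, against 27.36 and 13.98 CPM in mock H and Q. H2O2 was 1.61 and 1.73 times mock within H and Q, and H2O2 Q lay just under mock H. Its log2 fold change was 0.73 ± 0.44 (SE), with an adjusted p of 0.750 in edgeR. SERPINF1, pigment epithelium-derived factor, a secreted serpin that does not inhibit proteases, was at 154 and 77.2 CPM in H2O2 H and Q, against 82.3 and 35.6 CPM in mock H and Q. H2O2 was 1.87 and 2.17 times mock within H and Q, with H2O2 Q again just under mock H. The log2 fold change of SERPINF1 was 0.97 ± 0.52 (SE), with an adjusted p of 0.726 in edgeR.

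In the other abundant plasma serpins the H libraries were nearly equal and mock Q was low. SERPINF2, alpha-2-antiplasmin, the chief plasma inhibitor of plasmin, was at 182 and 79.0 CPM in H2O2 H and Q, against 177 and 28.0 CPM in mock H and Q. H2O2 was 1.03 times mock within H and 2.81 times within Q, and the log2 fold change was 0.35 ± 0.88 (SE) with an adjusted p of 0.925 in edgeR. SERPINA3, alpha-1-antichymotrypsin, an acute-phase inhibitor of cathepsin G, was at 67.0 and 62.9 CPM in H2O2 H and Q, against 67.7 and 37.1 CPM in mock H and Q. Only mock Q of its 4 libraries stood apart. SERPINA5, the protein C inhibitor, was at 125 and 136 CPM in H2O2 H and Q, against 133 and 105 CPM in mock H and Q. Its log2 fold change of 0.13 ± 0.21 (SE) was smaller than its error, and that of SERPINA3 was 0.31 ± 0.32 (SE). Without mock Q the log2 fold changes were −0.44 for SERPINF2, −0.06 for SERPINA3 and −0.03 for SERPINA5. SERPINA10, the protein Z-dependent inhibitor of factor Xa, had a log2 fold change of 0.58 ± 0.40 (SE), with 0.35 within H and 0.90 within Q.

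SERPIND1 and SERPINA7 went opposite ways in the letters. SERPIND1, heparin cofactor II, an inhibitor of thrombin, was at 60.02 and 47.99 CPM in H2O2 H and Q, against 86.1 and 33.7 CPM in mock H and Q. SERPINA7, the thyroxine-binding globulin of plasma, was at 2.23 and 4.37 CPM in H2O2 H and Q, against 7.03 and 1.47 CPM in mock H and Q. Both H2O2 libraries lay between the mock libraries for each gene. The log2 fold changes were −0.15 ± 0.46 (SE) for SERPIND1 and −0.36 ± 0.77 (SE) for SERPINA7.

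**Figure D2:**
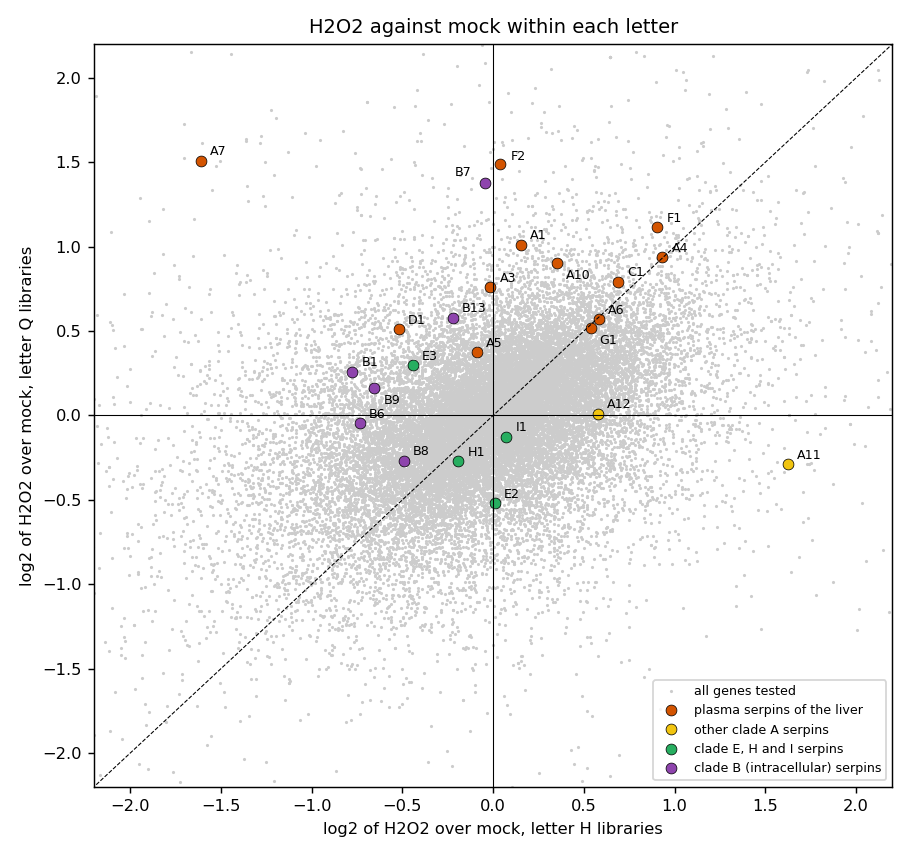
Log2 ratio of H2O2 over mock in the letter H libraries (x axis) and in the letter Q libraries (y axis), for serpins that passed the filter (coloured by group) and all 27263 genes tested (grey). SERPINA4, SERPINF1, SERPINC1, SERPINA6 and SERPING1 lie in the upper right near the diagonal, SERPINF2 and SERPINA1 are higher in letter Q, and SERPINA7 is at −1.61 in letter H and 1.51 in letter Q.

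Among the clade E, H and I serpins, which mostly act around cells rather than in plasma, 2 of the 5 tested had a higher and 3 a lower fitted level in H2O2, with a median log2 fold change of −0.02. SERPINE2, protease nexin-1, a cell-surface inhibitor of thrombin and plasminogen activators, was at 34.7 and 105 CPM in H2O2 H and Q, against 34.5 and 151 CPM in mock H and Q. Both Q libraries lay far above both H libraries. Its log2 fold change of H2O2 over mock was −0.41 ± 0.82 (SE). SERPINH1, the collagen chaperone of the endoplasmic reticulum, was at 95.2 and 129 CPM in H2O2 H and Q, against 109 and 156 CPM in mock H and Q. It was lower in H2O2 within both letters, and its log2 fold change was −0.24 ± 0.28 (SE). Of its collagen partners, COL1A1 of type I collagen was at 14.3 and 15.3 CPM in H2O2 H and Q, against 18.7 and 21.8 CPM in mock H and Q. SERPINI1, neuroserpin, an inhibitor of tissue plasminogen activator best known from neurons, was at 13.9 and 11.8 CPM in H2O2 H and Q, against 13.2 and 12.9 CPM in mock H and Q. Its log2 fold change was −0.02 ± 0.21 (SE), and 0.01 with RLE size factors. SERPINE3 was near 1 CPM, at 0.460 and 1.08 CPM in H2O2 H and Q, against 0.660 and 0.859 CPM in mock H and Q, with a log2 fold change of 0.02 (−0.02 without scaling factors).

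The clade B serpins guard the inside of cells against proteases of leukocytes and lysosomes, and the tables held 13 of them, of which 6 were tested. Of the 6, 2 had a higher and 4 a lower fitted level in H2O2, with a median log2 fold change of −0.30. SERPINB1, the leukocyte elastase inhibitor, was at 136 and 102 CPM in H2O2 H and Q, against 233 and 84.9 CPM in mock H and Q. Both H2O2 libraries lay between the mock libraries, and the log2 fold change was −0.42 ± 0.50 (SE) with an adjusted p of 0.841 in edgeR. SERPINB6, an intracellular inhibitor of cathepsin G, was at 40.6 and 38.8 CPM in H2O2 H and Q, against 67.75 and 40 CPM in mock H and Q. SERPINB9, the granzyme B inhibitor, was at 28.0 and 31.9 CPM in H2O2 H and Q, against 44.1 and 28.5 CPM in mock H and Q. For both genes mock H stood above the other 3 libraries. These 3 genes are the serpins of chromosome 6, and without mock H 1 of the 3 was lower in H2O2. Their log2 ratios were −0.78, −0.74 and −0.65 within H for SERPINB1, SERPINB6 and SERPINB9, and 0.26, −0.05 and 0.16 within Q.

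The serpins of chromosome 14 are all of clade A and lie in 1 cluster of related genes. Of these 9 genes, 8 were tested, and 8 of 8 had a higher fitted level in H2O2, with a median log2 fold change of 0.54. Over all genes, 12866 of the 27263 tested had a higher fitted level. SERPINA1, SERPINA3, SERPINA4, SERPINA5, SERPINA6 and SERPINA10 of this cluster were already counted among the plasma serpins. In 5 of the 8 the level was higher within both letters (32.5% of all genes), and without mock Q 5 of the 8 were higher. SERPINA11 and SERPINA12 were the lowest of the 8, with 0.117 to 0.685 and 0.0722 to 0.157 CPM over the 4 libraries. SERPINA12, vaspin, a serpin best known from adipose tissue, had 16 and 15 reads in H2O2 H and Q, against 7 and 15 in mock H and Q. SERPINA11 had 0.685 and 0.117 CPM in H2O2 H and Q, against 0.155 and 0.165 CPM in mock H and Q, so that H2O2 H alone stood above the other 3 libraries. Its log2 fold change was 1.31 ± 0.88 (SE).

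Of the 10 serpins of chromosome 18, a cluster of clade B genes best known from skin and other epithelia, 7 did not pass the filter. In all, 9 serpins did not pass: SERPINA9, SERPINB2, SERPINB3, SERPINB4, SERPINB5, SERPINB10, SERPINB11, SERPINB12 and SERPINI2. They had 1 to 37 reads in total over the 4 libraries and at most 28 in a library, which was SERPINI2 in mock Q. SERPINB3 and SERPINB12 had 0 reads in both mock libraries. SERPINB3 and SERPINB4 are near-identical copies, so the few reads of either may belong to the other.

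**Figure D3:**
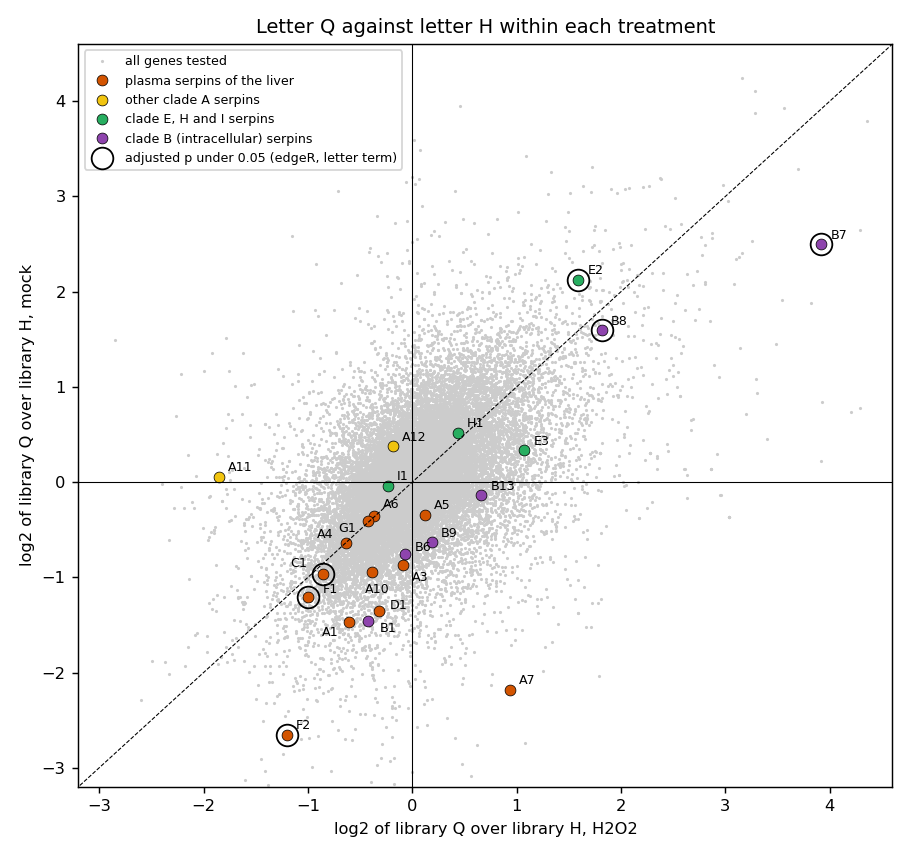
Log2 ratio of library Q over library H in H2O2 (x axis) and in mock (y axis), for serpins that passed the filter (coloured by group) and all 27263 genes tested (grey), with rings at an adjusted p under 0.05 for the letter in edgeR. SERPINB7, SERPINE2 and SERPINB8 lie in the upper right, SERPINF2, SERPINF1 and SERPINC1 in the lower left, and SERPINA7 is at 0.94 in H2O2 and −2.18 in mock.

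Several serpins differed between the letters. In an edgeR fit with a term for the letter beside the treatment, tested for the letter after the values had been seen and with 1 residual degree of freedom, 3 serpins had a higher level in Q at an adjusted p under 0.05 (2.31% of all genes) and 3 a lower level (2.85% of all genes). SERPINB7, a serpin best known from skin, had 399 and 148 reads in the Q libraries of H2O2 and mock, against 13 and 13 reads in their H libraries. Its log2 ratio of Q over H was 3.98 ± 0.44 (SE), with an adjusted p of 0.0201. SERPINB8, an intracellular inhibitor of furin, was at 6.35 and 7.67 CPM in the Q libraries of H2O2 and mock, against 1.73 and 2.48 CPM in their H libraries. Its log2 ratio was 1.75 ± 0.21 (SE), with an adjusted p of 0.0219 in edgeR, and that of SERPINE2 was 1.86 ± 0.17 (SE), with an adjusted p of 0.0177. The 3 serpins lower in Q were all plasma serpins. Their log2 ratios were −1.93 ± 0.33 (SE) for SERPINF2, −1.10 ± 0.14 for SERPINF1 and −0.92 ± 0.15 for SERPINC1, with adjusted p of 0.0340, 0.0222 and 0.0302 in edgeR. For the treatment, the same fit called 57 genes (0.209% of all genes) and 0 serpins, and 8 serpins had an unadjusted p under 0.05 (19.2% of all genes).

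SERPINA1 had a log2 ratio of Q over H of −1.04 ± 0.23 (SE), with an adjusted p of 0.0540 in edgeR. Of the 12 plasma serpins, 10 were lower in Q in both treatments (32.6% of all genes) and 0 were higher in both (36.8% of all genes), and the median log2 ratio was −0.67. For the 23 other secreted hepatocyte proteins the median was −1.04, with 20 lower in both treatments. SERPINB13, the third gene tested on chromosome 18, had a log2 ratio of 0.41 ± 0.58 (SE). In a fit without the treatment term 0 of the 6 serpins had an adjusted p under 0.05. The 7 cholangiocyte markers summed to 632 and 733 CPM in the Q libraries of H2O2 and mock, against 293 and 317 CPM in their H libraries. Most of this sum was SPP1, osteopontin, and the other 6 summed to 154 and 171 CPM in the Q libraries of H2O2 and mock, against 167 and 214 CPM in their H libraries. Whether they bear on the serpin values was not tested, and whatever else separates the Q from the H libraries cannot be told apart from the letter.

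**Figure D4:**
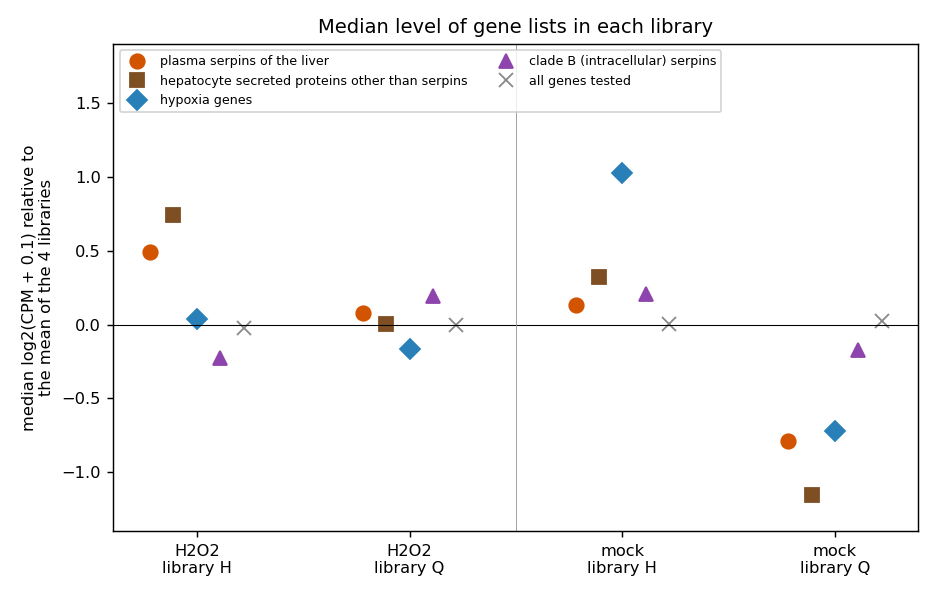
Median log2(CPM + 0.1) of gene lists in each library relative to the mean of the 4 libraries (y axis), with H2O2 left of mock. The plasma serpins are at 0.49 and 0.08 in H2O2 H and Q, against 0.13 and −0.79 in mock H and Q, in the same order as the other secreted hepatocyte proteins, while all genes tested stay near 0.

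The genes around the serpins were described from lists. AGT, angiotensinogen, has the serpin fold without the symbol and was at 189 and 123 CPM in H2O2 H and Q, against 108 and 98.9 CPM in mock H and Q. Its groups did not overlap, and its log2 fold change was 0.59 ± 0.26 (SE), with an adjusted p of 0.719 in edgeR. Of 35 target proteases listed 26 were tested, and 12 had a higher and 14 a lower fitted level, with a median log2 fold change of −0.05. At an unadjusted p under 0.05, 2 were higher, GZMA and C1R (3.16% of all genes), and 1 was lower, CTSK (3.70%). GZMA had few reads, 12 and 104 in H2O2 H and Q, against 4 and 5 in mock H and Q. C1R, a complement protease held by SERPING1, was at 25.1 and 33.5 CPM in H2O2 H and Q, against 18.8 and 16.6 CPM in mock H and Q. PLAU, urokinase, a plasminogen activator inhibited by SERPINE2, was at 8.88 and 12.9 CPM in H2O2 H and Q, against 13.8 and 22.7 CPM in mock H and Q. For both genes the groups did not overlap, with C1R higher and PLAU lower in H2O2.

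Of 13 cofactors and receptors tested, 4 had a higher and 9 a lower fitted level, with a median log2 fold change of −0.05. At an unadjusted p under 0.05, 0 were higher (3.16% of all genes) and 1 was lower, VLDLR (3.70%). LRP1, the endocytic receptor that clears serpin-protease complexes, was at 316 and 263 CPM in H2O2 H and Q, against 558 and 350 CPM in mock H and Q. Its groups did not overlap, and its log2 fold change was −0.65 ± 0.30 (SE), with an adjusted p of 0.719 in edgeR. Of 20 genes of folding and export, which include 5 collagens as partners of SERPINH1, 4 had a higher and 16 a lower fitted level, with a median of −0.17. Of the 15 other than collagens, 3 had a higher and 12 a lower fitted level, with a median of −0.17. At an unadjusted p under 0.05, 0 of the 20 were higher (3.16% of all genes) and 1 was lower (3.70%), COL5A1 of type V collagen. COL5A1 had 23 and 23 reads in H2O2 H and Q, against 64 and 86 in mock H and Q. LMAN1, a cargo receptor that carries SERPINA1 out of the endoplasmic reticulum, was at 255 and 192 CPM in H2O2 H and Q, against 179 and 159 CPM in mock H and Q.

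Of 20 transcription factors known to act on serpin genes, 12 had a higher and 8 a lower fitted level, with a median of 0.14. At an unadjusted p under 0.05, 3 were higher, ATF3, CEBPB and NR1D1 (3.16% of all genes), and 2 were lower, SMAD3 among them (3.70%). SMAD3, which carries the TGF-beta signal to the nucleus, was at 66.2 and 97.2 CPM in H2O2 H and Q, against 134 and 144 CPM in mock H and Q. ATF3, a stress-induced factor, was at 85.7 and 86.7 CPM in H2O2 H and Q, against 15.6 and 42.5 CPM in mock H and Q.

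Of 33 protease inhibitors of other families, 16 had a higher and 17 a lower fitted level, with a median of −0.07. At an unadjusted p under 0.05, 2 were higher, CSTA and SPINK4 (3.16% of all genes). Lower at that threshold were 4, SPINT1, TIMP2, SPINK1 and ITIH4 (3.70% of all genes). SPINK4 had 54 and 46 reads in H2O2 H and Q, against 6 and 18 in mock H and Q. ITIH4 had 37 and 29 reads in H2O2 H and Q, against 62 and 106 in mock H and Q. SPINT1, a Kunitz-type inhibitor of hepatocyte growth factor activator, was at 7.60 and 15.0 CPM in H2O2 H and Q, against 43.9 and 68.4 CPM in mock H and Q. Its log2 fold change was −2.31 ± 0.42 (SE), with an adjusted p of 0.717 in edgeR. The median of the 25 serpins, 0.35, or 0.22 without those averaging under 2 CPM, was above that of the other inhibitors. No test of that difference was made.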

How the data were processed

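RNA was extracted from mock and H2O2-treated Huh7 cells and made into cDNA libraries with a TruSeq RNA kit, per the labels' protocols. The submitters' processing notes name Bowtie 0.12.2 and TopHat 1.3.3, with CASAVA and Cuffdiff, and the builds hg19, GRCh37 and mm8, without saying what each was for. No source used here names the counter, the gene models or the strand setting, so reads of a gene and of an antisense partner cannot be told apart.

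Per the file headers, each transcript model has a read count and an FPKM, which the authors deposited separately for each library. Read counts repeated over the isoforms of a gene, so 1 model per gene was used, that with the most reads over the 4 libraries. The total counts of 103851326 to 113082498 exceeded the 78126878 to 88409567 mapped mates of the deposited alignment summaries, so counting precision is overstated. Levels per kilobase used the longest GENCODE transcript matched to the RefSeq accession of the model or, for 3 genes, to the symbol.

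The main test was edgeR 4.0.16 (R 4.3.3), quasi-likelihood and two-sided, on all 27263 genes with a mean count of at least 10, with TMM scaling and Benjamini-Hochberg adjustment at 5%. It had 2 residual degrees of freedom. DESeq2 1.42.0, limma 3.58.1 on log2(FPKM + 1) and log2(FPKM + 0.1), other filters and scalings, summed models, a block by letter and each library left out were alternatives. The code was tested on simulated data. Groups came from the treatment label. Ratios within a letter used CPM + 0.1. Every serpin was accounted for. Those given by library had p under 0.05, non-overlapping groups with a log2 fold change of at least 0.5 in size, a place among the 8 highest per kilobase, or were SERPINA1 or SERPINC1. From each other list, the genes of lowest p were eligible. CDH5, PTPRC, ALB, TTR and the further serpins given by library were named after their values were seen. Some items of these lists are not reported here. The members and lists were chosen with earlier results of these data known.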

Additional observations from a re-analysis of the deposited data

Results flagged for a closer look

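Of the 25 serpins, 12 had log2 ratios of H2O2 over mock of opposite sign in the letters, beside 9057 of the 27263 genes tested. SERPINA7 and SERPIND1 are given here because both of their ratios were at least 0.5 in size. For SERPINA7 the log2 ratio of H2O2 over mock was −1.61 within H and 1.51 within Q, a difference of −3.12. For SERPIND1 it was −0.52 within H and 0.51 within Q, a difference of −1.03. With 1 library for each letter and treatment, these differences could not be tested. SERPINA11, SERPINB7 and SERPINB1 had larger differences than SERPIND1, each with 1 ratio under 0.5 in size.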

How the results depend on the processing

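For H2O2 against mock, no serpin passed 5% in any alternative run. Over all genes, the number past 5% was 9 with no filter, 57 with the letter as a replicate block and 141 in DESeq2, against 0. The number of serpins at an unadjusted p under 0.05 was 2 of 25 (6.86% of all genes). It was 1 of 22 with an FPKM filter (6.81% of all genes) and 1 of 26 with summed models (6.74%). It was 3 of 25 with mapped mates as library size (5.91%) and in limma on log2(FPKM + 0.1) (5.70%). With the replicate block it was 8 (19.2% of all genes), among them SERPINA1, SERPINA10, SERPINA4, SERPINA6, SERPINC1, SERPINF1 and SERPING1. The labels do not say that the letters pair the libraries; across genes, the deviations of the H libraries from their group means correlated at 0.52. Leaving out 1 library gave 1 to 9 serpins at that p: 1 without H2O2 H (1.98% of all genes), 3 without H2O2 Q (5.34%), 9 without mock H (7.61%) and 4 without mock Q (8.44%). Non-overlapping serpins numbered 8 of 25 without scaling factors, with mapped mates as library size and in both limma fits, against 5 of 25. With no filter they were 8 of 34, the added ones being SERPINB3, SERPINB5 and SERPINB10, which had few reads. With 1 library left out they were 12 to 18, where fewer libraries overlap by construction. The share over all genes was taken only for the main run (18.2% higher and 21.4% lower). The count of higher plasma serpins, with its alternatives added after the data were seen, was 6 to 12 with 1 library left out, against 10. The 6 letter calls fell to 0 without the treatment term, where the log2 ratios of Q over H were 4.11 for SERPINB7, 1.74 for SERPINB8, −0.90 for SERPINC1, 1.88 for SERPINE2, −1.07 for SERPINF1 and −1.74 for SERPINF2; no library can be left out of the letter fit, which then has no residual degrees of freedom.

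Of 25 serpins, 16 changed sign in some alternative and 9 did not, among them SERPINA4, SERPINA6, SERPINA10, SERPINA12, SERPINB6, SERPINC1, SERPINF1 and SERPING1. Leaving out 1 library gave log2 fold changes of −0.78 to −0.01 for SERPINB6 and 0.17 to 1.15 for SERPINA10. It gave 0.18 to 0.95 for SERPINA12, 0.23 to 1.29 for SERPINC1 and 0.30 to 0.75 for SERPING1. For SERPINA6, SERPINF1 and SERPINA4 it gave 0.38 to 0.77, 0.39 to 1.70 and 0.61 to 1.35. SERPINA12 did not enter the run with an FPKM filter. With 1 library left out, the log2 fold change was −0.12 to 1.35 for SERPINA1, −0.45 to 2.10 for SERPINA11, −0.06 to 0.81 for SERPINA3, −0.03 to 0.32 for SERPINA5, −1.09 to 1.17 for SERPINA7, −0.98 to 0.49 for SERPINB1, −0.25 to 0.76 for SERPINB13 and −2.40 to 3.68 for SERPINB7. It was −1.54 to 0.70 for SERPINB8, −0.56 to 0.07 for SERPINB9, −0.68 to 0.68 for SERPIND1, −1.4 to 1.01 for SERPINE2, −0.71 to 0.50 for SERPINE3, −0.44 to 2.22 for SERPINF2, −0.48 to 0.04 for SERPINH1 and −0.15 to 0.10 for SERPINI1. Otherwise signs changed for SERPINI1 (0.01 with RLE size factors and in DESeq2) and SERPINE3 (−0.02 without scaling factors, −0.07 with the replicate block, −0.01 in limma on log2(FPKM + 0.1)). In limma on log2(FPKM + 1) and log2(FPKM + 0.1) they changed for SERPINA7 (0.02 and 0.05) and SERPINB13 (−0.13 and −0.60). The cause was not tested. With 2 libraries per group, 2 residual degrees of freedom limit every test, and serpins under 10 reads on average were not compared.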
